A study of Mus musculus with 48 samples.

Results

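Small leucine-rich proteoglycans (SLRPs) are secreted proteins of the extracellular matrix, and 10 of their genes were followed here through mouse tibialis anterior muscle: *Dcn*, *Bgn*, *Aspn*, *Fmod*, *Lum*, *Kera*, *Prelp*, *Omd*, *Ogn*, and *Podn*. The genes were chosen by symbol from a table of 56748 annotated genes, and all 10 passed the filter on low counts that left 15637 genes for testing. They were picked with earlier results of these data known. Which measured values the list was selected on is not recorded. The adjusted p-values given here therefore place each gene among all genes tested and are not independent support for the choice.

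SLRP core proteins are built of leucine-rich repeats, and most carry chondroitin, dermatan, or keratan sulfate chains. They bind fibrillar collagens and set the width and spacing of the fibrils, and several also hold growth factors such as TGF-β in the matrix. In skeletal muscle, they belong to the connective tissue around the fibers and to the tendon ends, where fibroblasts, fibro-adipogenic progenitors, and tenocytes make them.

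The study asked whether the forkhead transcription factor FoxP1 in muscle fibers takes part in the disruption of circadian gene expression by pancreatic cancer. RNA-seq was performed on 48 muscles, each from a male mouse aged 39 to 55 weeks that was kept in constant darkness. This age is the one in the paper's methods, whereas its limitations paragraph gives a younger age for the RNA-seq mice. Mice labeled FoxP1SkmKO carry *Foxp1* fl/fl with Acta1-cre, in which the skeletal actin promoter drives Cre in muscle fibers. Mice labeled WT carry C57BL/6J as their strain or genotype label, and the series' design text gives them as *FoxP1* fl/fl mice without Cre. KPC mice received murine KPC pancreatic tumor cells in the pancreas and control mice received PBS there. Muscles were taken every 4 h from circadian time CT18 to CT38 (6 times), with 2 mice for each genotype, condition, and time, which gives 24 groups and 12 mice for each genotype and condition. The libraries held 14480867 to 20787784 counts, and the median correlation of a library with the others was between 0.973 and 0.983 except for FoxP1SkmKO KPC CT18 replicate 2, which was lowest at 0.969. The 2 mice of that group also differed most from each other (chi-square per degree of freedom of 15.8, against 4.79 to 11.6 in the other groups). The targeted gene did not separate the labels. *Foxp1* read 0.430 to 0.971 FPKM in WT control, 0.454 to 0.757 in WT KPC, 0.430 to 0.642 in FoxP1SkmKO control, and 0.419 to 0.653 in FoxP1SkmKO KPC mice. Its log2 fold change between genotypes was -0.11 (SE 0.07, edgeR adjusted p = 0.459) in control mice and -0.20 (SE 0.07, adjusted p = 0.246) in KPC mice. A count over the whole gene includes transcripts from other cell types and from exons outside the deletion, so genotypes are named here as labeled.

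Most of the 10 genes have another member as a neighbor in the mm39 genome, as the deposited annotation places them. *Dcn* (chr10:97315471-97354005), *Lum* (chr10:97400990-97408565), and *Kera* (chr10:97442741-97449554) follow each other on the plus strand, with gaps of 46984 and 34175 bp. *Aspn* (chr13:49697919-49721041), *Omd* (chr13:49735938-49746298), and *Ogn* (chr13:49761522-49777977) are likewise consecutive on the plus strand, with gaps of 14896 and 15223 bp. *Prelp* (chr1:133838042-133849152, minus strand) lies 115839 bp from *Fmod* (chr1:133964992-133976015, plus strand). *Bgn* is on the X chromosome (chrX:72527208-72539539, plus strand) and *Podn* on chromosome 4 (chr4:107871988-107953642, minus strand). Overlaps with other genes bear on some of the counts. *Podn* overlaps *Scp2* (sterol carrier protein) on the same strand, which read 29.7 FPKM, so reads in the shared stretch cannot be told apart. The differences between mice of a group in *Podn* and *Scp2* had a correlation of 0.01 over 24 groups. Such differences hold no effect of time, tumor, or genotype. They cannot show whether *Scp2* reads enter the time course of *Podn*, which was not tested. *Aspn*, *Omd*, and *Ogn* lie inside the antisense gene *Cenpp*, and *Prelp* overlaps the antisense gene *Gm15851*. *Cenpp* had at most 19 counts in a library and *Gm15851* at most 3. Whether the counting used strand is not given in the sources used here.

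The upstream sequences of 3 members are shown because these genes differed in how they behaved. *Kera* had the tumor effect that passed the test in WT mice, *Fmod* was the member whose differences between mice were closest to those of *Kera*, and *Prelp* was among the members with a rhythm common to all mice. RefSeq promoter entries (GRCm38.p6) matched 8 of the 10 members. Each sequence below is the 250 bases before the gene's start, 5′ to 3′ on the gene's own strand, at chr10:97606955-97607204 (plus strand), chr1:134037004-134037253 (plus strand), and chr1:133921402-133921651 (minus strand), in GRCm38.p6 coordinates that are not those of mm39. Capitals mark the E-box CATCTG, the only match found in these 3 windows on either strand among CATCTG, the E-box CACGTG bound by the core clock, and the forkhead letters TGTTTAC.
Kera: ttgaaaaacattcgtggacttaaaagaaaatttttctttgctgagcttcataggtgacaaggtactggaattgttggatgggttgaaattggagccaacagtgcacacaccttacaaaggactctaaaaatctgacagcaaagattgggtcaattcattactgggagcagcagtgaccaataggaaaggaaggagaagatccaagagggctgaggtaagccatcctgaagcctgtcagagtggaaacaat
Fmod: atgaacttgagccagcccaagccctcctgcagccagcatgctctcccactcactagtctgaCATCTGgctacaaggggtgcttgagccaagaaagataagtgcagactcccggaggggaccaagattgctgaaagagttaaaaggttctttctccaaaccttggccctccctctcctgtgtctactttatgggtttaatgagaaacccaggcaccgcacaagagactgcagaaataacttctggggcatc
Prelp: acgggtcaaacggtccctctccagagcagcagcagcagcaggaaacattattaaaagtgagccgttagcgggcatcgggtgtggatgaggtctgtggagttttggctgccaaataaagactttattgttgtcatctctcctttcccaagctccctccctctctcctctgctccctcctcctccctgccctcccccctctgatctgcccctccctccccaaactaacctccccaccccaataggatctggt
The match in *Fmod* lies 189 bases before the start. CATCTG was held by 14.4% of all 32851 RefSeq promoter windows of this length, CACGTG by 6.02%, and TGTTTAC by 3.17%. Of the 8 members with an entry, *Podn* also held CATCTG, 82 bases before the start of one of its entries, and no member held CACGTG or TGTTTAC in these windows. The G and C content was 42.4% in *Kera*, 51.2% in *Fmod*, and 55.6% in *Prelp*, against a median of 52.4% over all windows. The match is a description of the letters and not a binding site.

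The order of levels per length was led by *Dcn*. Over all 48 mice, mean levels were 17.2 FPKM for *Dcn*, 7.85 for *Fmod*, 5.33 for *Bgn*, 4.95 for *Ogn*, 4.49 for *Prelp*, 4.20 for *Lum*, 3.28 for *Aspn*, 2.48 for *Podn*, 0.506 for *Kera*, and 0.125 for *Omd*. *Dcn* stood above the rest by more than its spread (SD 6.69, n = 48), whereas *Fmod* (SD 5.41) and *Bgn*, *Ogn*, *Prelp*, and *Lum* (SD 1.40 to 1.89) overlapped their neighbors in this order. *Kera* and *Omd* rested on few reads. *Kera* had 0 to 74 counts per library and *Omd*, a mineralized tissue SLRP, had 1 to 12, against 710 to 3698 for *Dcn*. Markers of cartilage and bone summed to at most 1.14 FPKM and markers of keratinocytes to at most 0.946 FPKM in any library, while the muscle fiber markers summed to 41778 to 57955 FPKM.

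**Figure D1:**
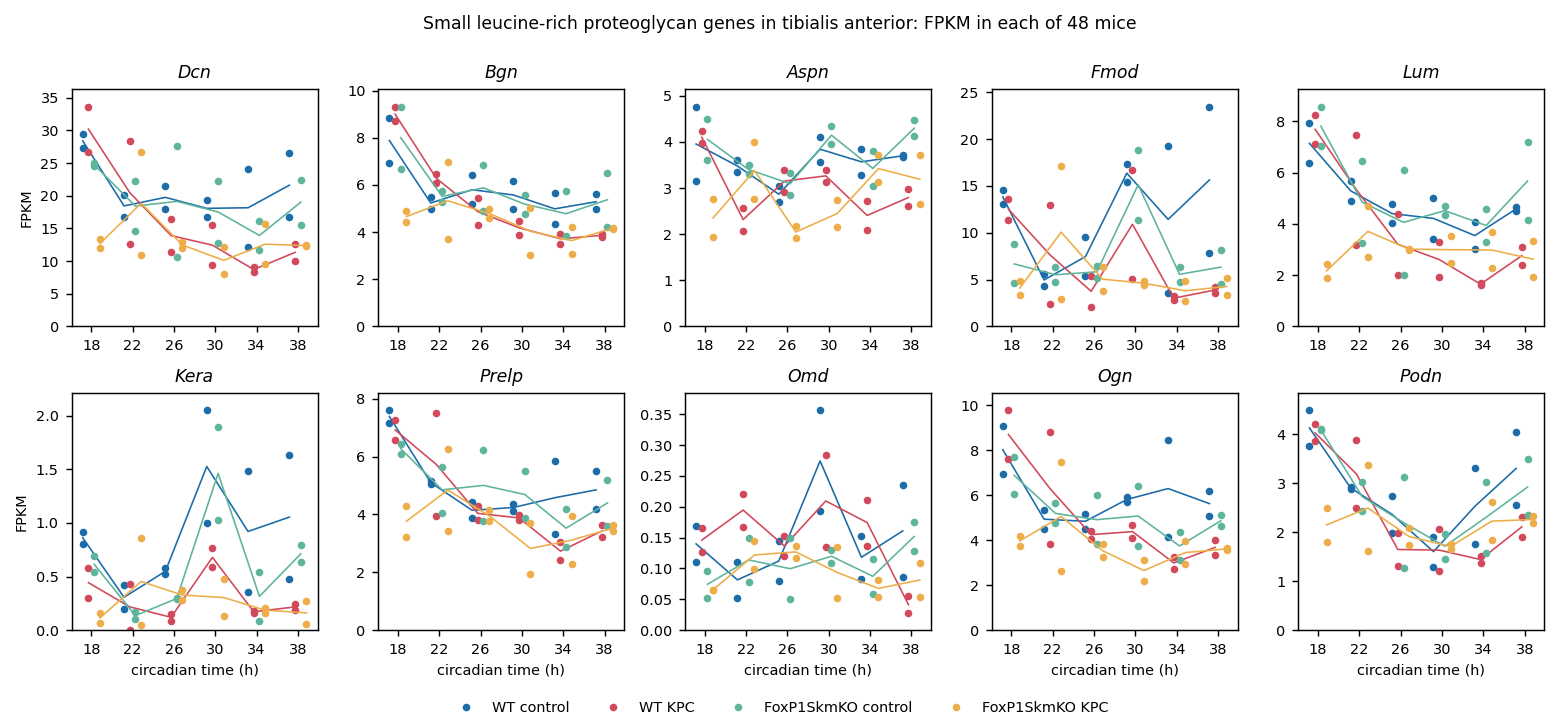
FPKM of each of the 10 genes (one panel per gene, each with its own linear axis from 0) against circadian time in hours, with one point per mouse colored by genotype and condition and lines through the means of 2 mice. *Dcn*, *Lum*, *Bgn*, *Ogn*, *Prelp*, and *Podn* are highest at CT18, where the 2 FoxP1SkmKO KPC mice lie low, and *Kera* and *Fmod* show the widest gaps between mice of a group.

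To find the effect of the tumor whatever the hour, KPC mice were compared with control mice within each genotype over the average of 6 times. All 10 members had a fold change below 0 in both genotypes, although the sign of *Omd* in WT mice changed with the processing. In WT mice, *Kera* fell, and in FoxP1SkmKO mice, *Lum* and *Aspn* fell, whereas the other members did not pass the test in that genotype. The median log2 fold change of the members was -0.31 in WT and -0.45 in FoxP1SkmKO mice, beside 0.0016 and 0.0048 over all genes tested, of which 49.4% and 48.2% were below 0. By edgeR, 7 of the 10 members had an unadjusted p under 0.05 in each genotype, beside 15.2% of all genes in WT and 12.4% in FoxP1SkmKO mice. Called genes made up 1.79% of all genes tested in WT mice (280 genes) and 0.428% in FoxP1SkmKO mice (67 genes), beside 1 and 2 of the 10 members. Single mice moved these counts, but the share of all genes called in those refits was not kept, so the counts have no background beside them. In WT mice, the count of called members rose to 3 (*Dcn*, *Fmod*, and *Kera*) without the KPC mouse CT22 replicate 2, and in FoxP1SkmKO mice to 5 (*Aspn*, *Bgn*, *Dcn*, *Lum*, and *Ogn*) without the KPC mouse CT22 replicate 1.

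Keratocan (*Kera*) is a keratan sulfate proteoglycan best known from the cornea, and also present in tendon. It read from 0.195 FPKM through a median of 0.691 to 2.05 FPKM in the 12 WT control mice, and from 0 through 0.217 to 0.768 FPKM in the 12 WT KPC mice. In FoxP1SkmKO mice it read 0.0872, 0.542, and 1.90 FPKM (lowest, median, and highest) in controls and 0.0487, 0.186, and 0.859 FPKM with KPC tumors. The groups overlapped in both genotypes, but the WT KPC mice lay lower, with 0 to 29 counts against 9 to 70 in WT controls. The mouse at 0 was the first replicate at CT22, where a count of 0 allows up to 3 counts, or 0.0769 FPKM. The log2 fold change was -1.56 (SE 0.36, adjusted p = 0.0207 by edgeR's quasi-likelihood test) in WT mice and -0.97 (SE 0.40, adjusted p = 0.288) in FoxP1SkmKO mice. The call in WT was lost without any of 5 mice, namely the KPC second replicate at CT38 and the control mice CT22 replicate 2, CT30 replicate 2, CT34 replicate 1, and CT38 replicate 1. With each of them left out the adjusted p of *Kera* was at most 0.0682, and its fold change stayed between -2.59 and -1.33 over all 48 omissions of a single mouse. An average without CT26, without CT34, or without CT38 also lost the call (adjusted p up to 0.0722).

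Lumican (*Lum*) is a keratan sulfate SLRP that limits the thickness of collagen fibrils. It read 3.03, 4.70, and 7.92 FPKM (lowest, median, and highest) in WT control and 1.61, 3.15, and 8.26 FPKM in WT KPC mice. FoxP1SkmKO mice gave 2.02, 4.63, and 8.57 FPKM in controls and 1.90, 2.85, and 4.71 FPKM with KPC tumors. The upper part of the range was therefore absent from FoxP1SkmKO KPC mice, while in WT KPC mice it was still reached. The log2 fold change was -0.79 (SE 0.17, adjusted p = 0.0230) in FoxP1SkmKO and -0.48 (SE 0.17, adjusted p = 0.142) in WT mice. The call in FoxP1SkmKO held in 41 of the 48 omissions of a single mouse, with fold changes from -0.89 to -0.63. It was lost without the KPC mice CT22 replicate 2, CT34 replicate 2, or CT38 replicate 1, without control replicate 2 of CT22, CT26, CT34, or CT38, with CT18, CT30, or CT38 left out of the average, in a fit of the 24 FoxP1SkmKO libraries alone, and in limma on log2 FPKM (*Lum* adjusted p up to 0.304).

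Asporin (*Aspn*), named for its run of aspartic acids, binds collagen and holds TGF-β. Relative to its mean it varied least among the members, with 2.86, 3.71, and 4.50 FPKM (lowest, median, and highest) in FoxP1SkmKO control and 1.91, 2.75, and 4.00 FPKM in FoxP1SkmKO KPC mice. WT mice gave 2.69, 3.58, and 4.76 FPKM in controls and 2.07, 2.94, and 4.23 FPKM with KPC tumors. The KPC mice lay lower in each genotype, with overlap. The log2 fold change was -0.43 (SE 0.08, adjusted p = 0.0110) in FoxP1SkmKO and -0.27 (SE 0.08, adjusted p = 0.0884) in WT mice. In FoxP1SkmKO mice, the call was kept in all 48 omissions of a single mouse, but it was lost with CT18 or CT30 left out of the average and in a fit of the 24 FoxP1SkmKO libraries alone (*Aspn* adjusted p up to 0.154).

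Of the other class I members, decorin (*Dcn*) ties collagen fibrils together through its dermatan or chondroitin sulfate chain. It read 20.7 ± 5.18 FPKM (SD, n = 12) in WT control, 16.2 ± 8.58 in WT KPC, 18.8 ± 5.84 in FoxP1SkmKO control, and 13.2 ± 4.66 FPKM in FoxP1SkmKO KPC mice. The log2 fold change was -0.47 (SE 0.16, adjusted p = 0.127) in WT and -0.52 (SE 0.16, adjusted p = 0.125) in FoxP1SkmKO mice. Biglycan (*Bgn*), which also binds innate immune receptors once released from the matrix, had log2 fold changes of -0.18 (95% interval -0.38 to 0.02) in WT and -0.37 (-0.57 to -0.17, adjusted p = 0.0723) in FoxP1SkmKO mice.

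Among class II members, fibromodulin (*Fmod*), which modulates collagen fibrils in tendon, had a wide spread for its mean. It read 3.55, 11.3, and 23.5 FPKM (lowest, median, and highest) in WT control and 2.10, 4.67, and 16.7 FPKM in WT KPC mice. FoxP1SkmKO mice gave 4.54, 6.36, and 18.8 FPKM in controls and 2.71, 4.61, and 17.2 FPKM with KPC tumors. In several groups 1 mouse read high and the other low. At CT34 the 2 WT control mice read 19.3 and 3.55 FPKM, and at CT22 the 2 FoxP1SkmKO KPC mice read 17.2 and 2.97 FPKM. The log2 fold change was -0.84 (SE 0.27, adjusted p = 0.111) in WT and -0.48 (SE 0.28, adjusted p = 0.503) in FoxP1SkmKO mice.

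The remaining members had no call in either genotype. *Prelp*, whose product links basement membranes to collagen, read 5.05 ± 1.30 and 4.45 ± 1.69 FPKM in WT control and KPC mice (SD, n = 12 each), with a log2 fold change of -0.22 (SE 0.12). It read 4.79 ± 1.2 and 3.67 ± 1.07 FPKM in the corresponding FoxP1SkmKO mice, with a log2 fold change of -0.38 (SE 0.13). The class III member *Ogn* (osteoglycin or mimecan) had log2 fold changes of -0.30 (SE 0.14) and -0.47 (SE 0.14) in WT and FoxP1SkmKO mice. The class V member *Podn* (podocan) had -0.31 (SE 0.15) and -0.28 (SE 0.15). *Omd* had -0.04 (95% interval -0.54 to 0.46) and -0.23 (-0.83 to 0.37), and its sign in WT mice changed with the processing, so that no direction can be read for it at 1 to 12 counts. The adjusted p-values of these 4 genes were between 0.127 and 0.970.

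**Figure D2:**
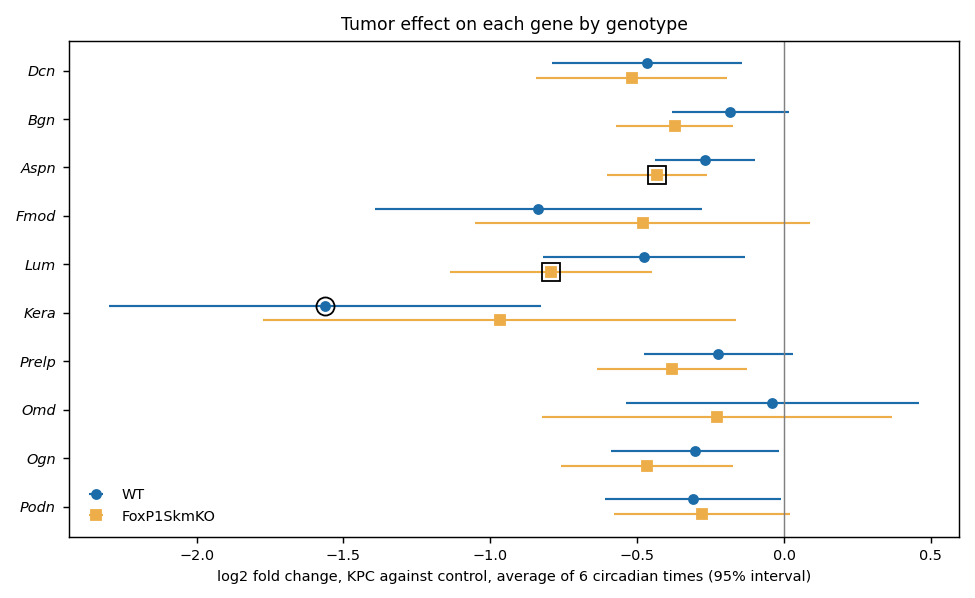
Log2 fold change of KPC against control mice, averaged over 6 circadian times, for each gene (vertical axis) in WT and FoxP1SkmKO mice, with 95% intervals as bars and black outlines around the values past an adjusted p of 0.05. Every point lies below 0 in this fit (*Omd* in WT mice changed sign under other processing), and the outlined ones are *Kera* in WT (-1.56) and *Lum* (-0.79) and *Aspn* (-0.43) in FoxP1SkmKO mice.

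Different members passed the test in the 2 genotypes, but the tumor effect itself was not shown to differ between genotypes. The FoxP1SkmKO effect minus the WT effect had 0 called members and 0 called genes in all (0% of genes tested) by edgeR. It had 0 members by DESeq2. At an unadjusted p under 0.05 by edgeR there were 0 members, beside 6.52% of all genes. The lowest adjusted p among the members was 0.847. The difference was 0.59 for *Kera* (95% interval -0.52 to 1.71), -0.32 for *Lum* (-0.80 to 0.17), and -0.16 for *Aspn* (-0.40 to 0.08) on the log2 scale. These intervals leave room for effects that are alike as well as for effects that are far apart, widest for *Kera*.

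Genotype alone was also compared. In control mice, 0 of the 10 members passed the test by edgeR, beside 3.44% of all genes tested (538 genes). *Kera* (log2 fold change -0.78, SE 0.34, adjusted p = 0.214) and *Fmod* (-0.62, SE 0.27, adjusted p = 0.215) had an unadjusted p under 0.05 and read lower in FoxP1SkmKO control mice. Of all genes, 17.2% had such a p in this comparison. *Lum*, *Bgn*, and *Aspn* had log2 fold changes of 0.07, -0.01, and 0.06. In KPC mice, 0 members passed, beside 0.32% of all genes tested (50 genes). *Ogn* (-0.38, SE 0.15, adjusted p = 0.300) was the 1 member with an unadjusted p under 0.05, beside 10.8% of all genes. DESeq2 also called 0 members in either comparison.

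At single times, with 2 mice against 2, none of the 10 members was called in either genotype by edgeR. Called genes were 0%, 0%, 7.17%, 0.0064%, 0%, and 0.0256% of all genes tested in WT mice from CT18 to CT38, and 0.0192%, 0%, 0.0384%, 0%, 0%, and 0.0064% in FoxP1SkmKO mice. In WT mice, 0, 1, 1, 0, 8, and 4 members had an unadjusted p under 0.05 from CT18 to CT38, beside 6.23%, 4.77%, 21.4%, 5.21%, 6.06%, and 9.82% of all genes. In FoxP1SkmKO mice, 8, 0, 1, 5, 0, and 3 members had such a p in the same order of times, beside 13.8%, 4.69%, 8.9%, 8.95%, 4.05%, and 8.05% of all genes. At CT38, 10 of 10 members were below 0 in both genotypes. Members varied together between mice of a group (given below), so these counts are not counts of independent genes. DESeq2 called *Lum* at 1 time in FoxP1SkmKO mice and 0 members in WT mice.

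The median log2 fold change of the members at CT18 was 0.05 in WT mice, with 4 of 10 below 0, and -0.79 in FoxP1SkmKO mice, with 10 of 10 below 0. By these medians, CT18 was the hour at which the genotypes read most differently. *Dcn* read 27.3 and 29.5 FPKM in WT control, 33.6 and 26.8 in WT KPC, 24.5 and 25.0 in FoxP1SkmKO control, and 12.0 and 13.3 FPKM in FoxP1SkmKO KPC mice. *Lum* read 6.36 and 7.92, 8.26 and 7.11, 7.05 and 8.57, and 1.90 and 2.43 FPKM in the same order. For both genes, the FoxP1SkmKO KPC mice lay below all others of that hour without overlap, in the group that holds the library with the lowest correlation. Without that library (replicate 2), the averaged tumor effect in FoxP1SkmKO mice still called 2 members (*Aspn* and *Lum*) and the single times called 0. Without replicate 1, the single times called 1 (*Aspn*). The lowest adjusted p-values were those of *Lum* (-1.83, adjusted p = 0.0687) and *Aspn* (-0.80, adjusted p = 0.0913) in FoxP1SkmKO mice, and the difference between genotypes at this hour was not tested.

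At CT34, *Dcn* read 24.2 and 12.2 FPKM in WT control and 9.15 and 8.27 FPKM in WT KPC mice, and *Lum* read 4.06 and 3.03 against 1.69 and 1.61 FPKM. For these 2 genes, both WT KPC mice were below both WT controls. The same held for *Bgn*, *Fmod*, *Prelp*, *Ogn*, *Aspn*, and *Kera*, whereas *Omd* overlapped. Over the mice of both genotypes at this hour, the lowest for *Bgn*, *Fmod*, and *Prelp* was FoxP1SkmKO KPC replicate 2 (3.06, 2.71, and 2.30 FPKM). The median log2 fold change of the members was -0.93 in WT and -0.27 in FoxP1SkmKO mice at this hour, with 9 of 10 below 0 in each. In FoxP1SkmKO mice at CT34, *Dcn* read 11.7 and 16.1 FPKM in controls and 15.7 and 9.52 FPKM with KPC tumors, which overlapped.

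**Figure D3:**
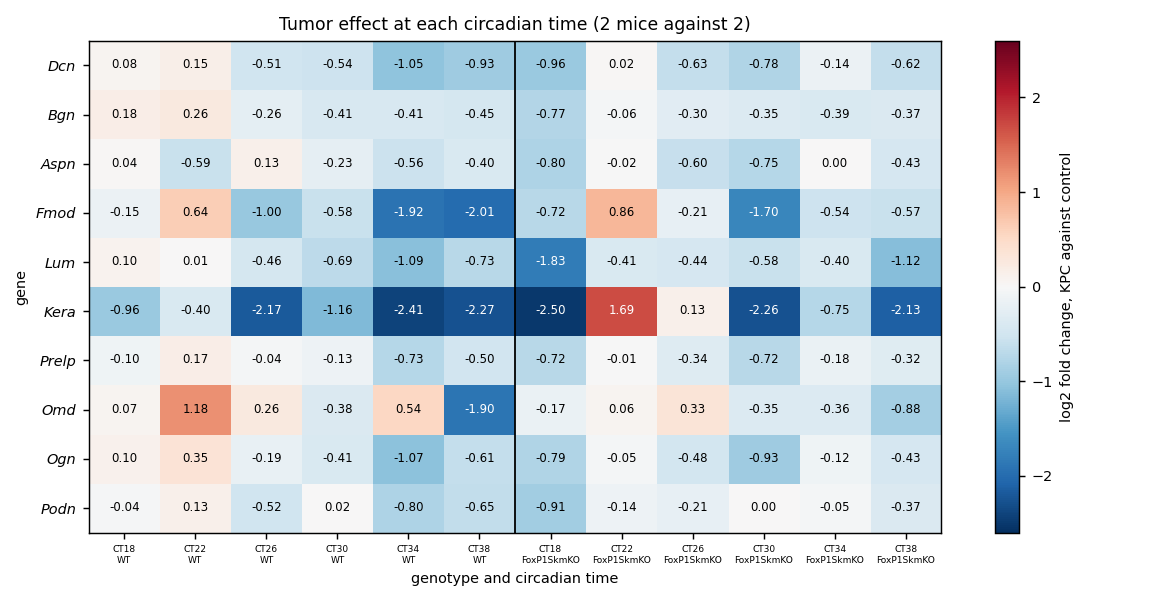
Color map of the log2 fold change of KPC against control mice (2 against 2) for each gene (rows) at each circadian time in WT and FoxP1SkmKO mice (columns), with the value printed in each cell. In WT mice the lowest columns are CT34 and CT38 (medians -0.93 and -0.69), and in FoxP1SkmKO mice they are CT18 and CT30 (medians -0.79 and -0.73). None of the single-time values was called.

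To see whether SLRP genes change over the day, a 24 h sinusoid with a separate mean for each genotype and condition was fitted to all 48 libraries on log2(FPKM + 1). *Podn*, *Prelp*, *Bgn*, *Dcn*, *Lum*, and *Ogn* passed the test (6 of 10), beside 30.9% of all genes tested. Their fitted peaks fell between CT18.1 and CT20.3, and 30.5% of all called genes peaked between CT14 and CT22. The amplitude, from the mean to the peak on this log2 scale, was 0.35 for *Podn* (adjusted p = 1.42e-05, F test with Benjamini-Hochberg adjustment), 0.28 for *Prelp* (adjusted p = 0.0005), 0.25 for *Bgn* (0.00106), 0.34 for *Dcn* (0.00597), 0.32 for *Lum* (0.00987), and 0.25 for *Ogn* (0.0146), where the median over all called genes was 0.106. The added 1 shrinks the amplitude of genes with low FPKM, so a comparison with this median depends in part on level. *Aspn* (adjusted p = 0.201), *Kera* (0.273), *Omd* (0.319), and *Fmod* (0.995) did not pass. The same fit called genes of other lists, named here after their values were seen. The collagens *Col6a3* (amplitude 0.35, peak CT21.3) and *Col6a2* (0.35, CT21.9) passed, as did the progenitor markers *Pdgfra* (0.25, CT20.1) and *Smoc2* (0.32, CT20.8). All 6 macrophage markers passed, with peaks from CT20.0 to CT21.5. Others did not pass, among them *Col12a1*, *Dpt*, and *Tnmd*. A rhythm peaking near these hours was not particular to SLRP genes.

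The means of these 6 genes were highest at CT18. Over the 8 mice of each time, *Dcn* averaged 24 ± 7.57 FPKM (SD) at CT18 and 13.3 ± 5.24 FPKM at CT34, *Lum* 6.20 ± 2.59 and 3.03 ± 1.09 FPKM, and *Bgn* 7.39 ± 1.96 and 4.28 ± 0.957 FPKM. *Podn* went from 3.60 ± 0.940 FPKM at CT18 to its lowest mean of 1.67 ± 0.320 FPKM at CT30, and then back to 2.65 ± 0.730 FPKM at CT38. *Fmod* (11.7 FPKM) and *Kera* (0.993 FPKM) instead had their highest mean at CT30. The calls leaned on single hours and groups. Without the 8 mice of CT18, *Bgn*, *Prelp*, and *Podn* passed (3 of 10), beside 26.0% of all genes. Without those of CT34, *Kera*, *Bgn*, *Prelp*, and *Podn* passed (4 of 10), beside 20.9%. Without the 12 WT KPC mice, *Prelp* and *Podn* passed (2 of 10), beside 23.4%. Omitting CT22, CT26, CT30, or CT38 left 6 members called, beside 24.9% to 32.4% of all genes. Omitting WT control, FoxP1SkmKO control, or FoxP1SkmKO KPC mice left 5, beside 20.6% to 26.4%. The 6 times span less than a full day, so a decline with time in darkness and a 24 h rhythm cannot be fully told apart.

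Within each genotype and condition, the rhythm of 12 mice was tested on FPKM at an unadjusted p under 0.01. *Podn* passed in WT control (p = 0.00797 by the F test, n = 12) and in WT KPC mice (p = 0.00348, n = 12), with amplitudes of 1.07 and 1.22 FPKM around means of 2.81 and 2.34 FPKM. No other member passed in any group, and *Bgn* in WT KPC mice was just outside (p = 0.01, n = 12). All genes passed at 4.92% in WT control, 4.22% in WT KPC, 4.07% in FoxP1SkmKO control, and 2.63% in FoxP1SkmKO KPC mice. With Benjamini-Hochberg adjustment, 0 members passed in any group. Omissions of a single mouse refitted the members alone, so no share of all genes stands beside those counts. Without the WT KPC mouse CT22 replicate 1, the count of passing members over the 4 groups rose from 2 to 6, with *Dcn*, *Lum*, *Ogn*, and *Prelp* added to *Podn*. The difference in rhythm between KPC and control mice had 0 members at an unadjusted p under 0.05 in either genotype, beside 5.07% of all genes in WT and 5.09% in FoxP1SkmKO mice. The lowest unadjusted p-values in that F test were 0.119 for *Ogn* in WT and 0.0970 for *Lum* in FoxP1SkmKO mice.

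Because mice of a group share genotype, tumor, and hour, the difference between the 2 mice of each of the 24 groups shows which members vary together apart from the design. All 45 pairs of members had a Pearson r above 0 over these 24 differences of log2 CPM (counts scaled to library size), and 34 had an adjusted permutation p under 0.05 (24 by Spearman's rho). For each pair, the 2 differences farthest from the median of 1 of its genes were also left out, and 22 pairs then passed. The groups left out change from pair to pair, and a narrower range can by itself lower r. *Dcn* and *Podn* had r = 0.90 and rho = 0.88, each with a permutation p of 1e-05, the smallest that 100000 resamples can give, an adjusted p of 9e-05 over 45 pairs, and r = 0.85 without the 2 extremes. *Dcn* was also close to *Prelp* (r = 0.90), *Ogn* (0.89), and its neighbor on chromosome 10, *Lum* (0.88). *Kera*, on the same chromosome, was less close to *Dcn* (r = 0.54, rho = 0.31, and r = 0.25 without the 2 extreme differences of *Kera*). *Kera* was closest to *Fmod*, with r = 0.77 (permutation p = 3e-05, adjusted 0.000123), rho = 0.57 (permutation p = 0.00435, adjusted 0.00932), and r = 0.58 without the extremes. *Omd* had r of 0.18 (with *Fmod*) to 0.44 (with *Podn*) with the other members.

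By the same measure, the 5 non-member genes nearest to *Dcn* were *Itih5* (r = 0.96), *Abca8a* (0.95), *Col6a2* (0.94), *Abca9* (0.94), and *Col6a3* (0.94), of which the 2 collagens form part of type VI collagen. For *Fmod* the nearest were *Cilp2* (0.93), the SLRP relative *Chad* or chondroadherin (0.90), *Itgbl1* (0.86), *Angptl7* (0.81), and *Dpysl3* (0.80). For *Kera* they were *Fras1* (0.79), *Kdelr3* (0.77), the procollagen peptidase *Adamts2* (0.77), *Dpysl3* (0.75), and *Olfml2b* (0.75), so that *Dpysl3* was near both *Fmod* and *Kera*. The median r over all 12624 genes compared was -0.03 with *Dcn*, -0.03 with *Fmod*, and -0.01 with *Kera*. Among cell type markers, *Dcn* had r = 0.91 with *Pdgfra*, 0.88 with *Dpt*, and 0.51 with *Pi16* of fibro-adipogenic progenitors, and 0.54 with *Tnmd*, 0.48 with *Comp*, and 0.65 with *Thbs4* of tenocytes. *Fmod* had 0.53, 0.62, and 0.46 with the same progenitor markers and 0.80, 0.79, and 0.76 with the same tenocyte markers. Only these markers, of 9 listed for progenitors and 6 for tenocytes, were compared, and the others, *Ly6a* among them, were not. Each of these values describes 24 differences that share library depth, and in bulk tissue fewer cells of a type and less RNA per cell cannot be told apart.

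**Figure D4:**
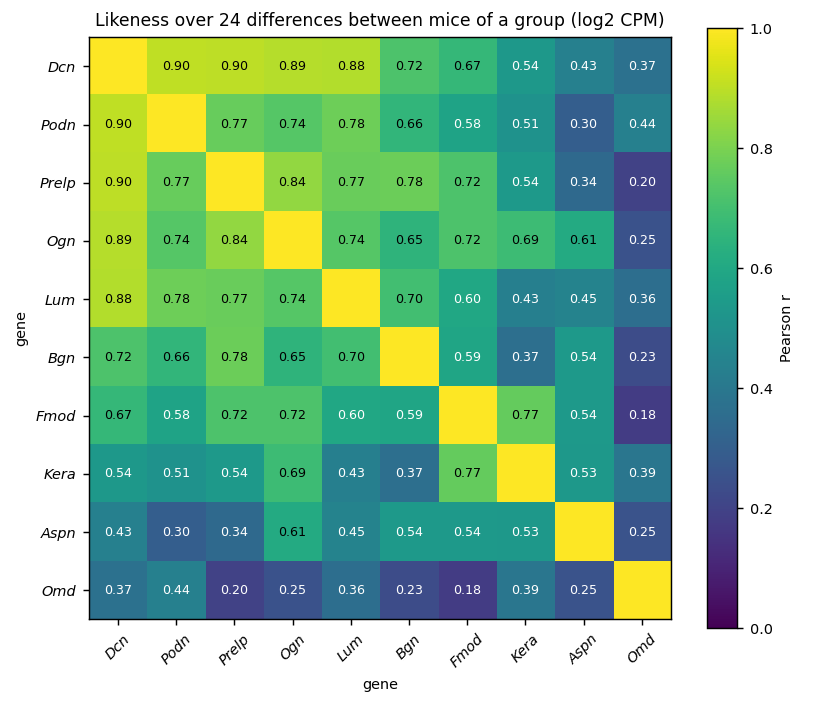
Pearson r for each pair of the 10 genes (rows and columns) over 24 differences in log2 CPM between the 2 mice of a group. *Dcn*, *Podn*, *Prelp*, *Ogn*, and *Lum* form a block of r from 0.74 to 0.90, *Fmod* and *Kera* reach 0.77 with each other, and *Omd* has r of 0.18 to 0.44 with the other genes.

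Tendon markers were read beside these genes. All 6 tenocyte markers had a fold change below 0 with KPC tumors in WT mice (median -0.58), and *Tnmd* (tenomodulin) passed the test at -1.42 (adjusted p = 0.0348). In FoxP1SkmKO mice, 5 of 6 were below 0 (median -0.61) and 0 passed by edgeR, with 3 at an unadjusted p under 0.05 in each genotype. For this count and those of the other markers below, the share of all genes was 15.2% in WT and 12.4% in FoxP1SkmKO mice. Summed tenocyte markers ranged from 13.2 to 32.2 FPKM in WT control, 10.7 to 20.0 in WT KPC, 12.6 to 27.6 in FoxP1SkmKO control, and 9.62 to 24.4 FPKM in FoxP1SkmKO KPC mice, and the groups overlapped. *Thbs4* is a large part of this sum (median 14.2 FPKM), while *Mkx* and *Col11a1* read near the floor (medians 0.055 and 0.031 FPKM). Of 9 markers of fibro-adipogenic progenitors, 8 had a fold change below 0 in WT mice (median -0.33, 6 with an unadjusted p under 0.05) and 7 in FoxP1SkmKO mice (median -0.38, 6 with an unadjusted p under 0.05). The 1 called marker was *Ly6a*, which rose in WT mice (0.45, adjusted p = 0.0141), and 0 were called in FoxP1SkmKO mice by edgeR. Their sum, of which *Ly6a* is a large part (median 21.4 FPKM), ranged from 35.1 to 51.4, 37.3 to 63.5, 36.4 to 55.2, and 33.0 to 55.9 FPKM in the same order of groups. Of 5 Schwann cell markers, 4 had a fold change below 0 in WT mice (median -0.32, 4 with an unadjusted p under 0.05) and 5 in FoxP1SkmKO mice (median -0.40, 3 with an unadjusted p under 0.05), and 0 were called in either genotype by edgeR. The 6 macrophage markers had medians of 0.18 and 0.09, with 0 called and 1 and 0 with an unadjusted p under 0.05. The part of tendon, progenitor, or nerve content in the SLRP values was not tested.

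Genes that work with the SLRPs were read from lists by role. Of 11 fibrillar and associated collagens, which SLRPs bind, 7 fell in WT mice (median of all 11 -0.48), among them *Col1a1* (-0.91, adjusted p = 0.0188) and *Col5a3* (-0.38, adjusted p = 0.0192). In FoxP1SkmKO mice 1 fell, *Col6a2* (-0.61, adjusted p = 0.0390), with a median of -0.51. All 11 had a fold change below 0 in each genotype. None of the 7 enzymes that build the linker of the sulfated chains was called with KPC tumors in either genotype, nor were any of the 14 tested chondroitin and dermatan sulfate enzymes, the 5 tested keratan sulfate enzymes, the 8 TGF-β ligands and receptors, or the 5 tested genes of procollagen and SLRP processing. Of 10 receptors bound by SLRPs, 1 fell in WT mice, the vascular endothelial growth factor receptor *Kdr* (-0.27, adjusted p = 0.0412). Between genotypes in control mice, 2 of these enzymes read higher in FoxP1SkmKO mice and passed the test, named here after their values were seen. They were the linker enzyme *Xylt1* (0.32, adjusted p = 0.0475) and the chondroitin synthase *Chsy1* (0.46, adjusted p = 0.0476). In the same comparison, 1 gene of procollagen and SLRP processing was called lower, the collagen cross-linking enzyme *Lox* (-0.57, adjusted p = 0.0395).

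Other genes of the SLRP family were read in the same way. Of 8 further family genes, 5 had enough counts to test and 0 were called in either genotype by edgeR. An unadjusted p under 0.05 was seen for 1 of them in each genotype, beside 15.2% of all genes in WT and 12.4% in FoxP1SkmKO mice. *Chad* read 1.80 ± 1.24 FPKM in WT control and 0.967 ± 0.968 FPKM in WT KPC mice (SD, n = 12), with a log2 fold change of -1.11 (SE 0.38, adjusted p = 0.134). *Ecm2*, a matrix protein related to decorin, averaged 2.01 FPKM over all mice and had a log2 fold change of -0.32 (adjusted p = 0.0722) in FoxP1SkmKO mice, and *Tsku*, *Chadl*, and *Nyx* averaged 0.312, 0.492, and 0.0515 FPKM over all mice. *Epyc*, *Optc*, and *Podnl1* did not reach the count filter.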

How the data were processed

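Poly-A RNA-seq of 48 tibialis anterior muscles was used. The authors deposited whole-number read counts per gene in 12 tables of 4 libraries each, and FPKM (fragments scaled to gene length and library size) of 56748 genes in 1 table. The paper's methods name alignment to mm39 with STAR and counting with HTSeq, whereas the submitters' processing notes list HISAT2 2.0.5 and DESeq2 1.20.0. FPKM times length gave back the deposited counts, and genes left out of a count table had at most 1 recovered count. Columns of the authors' own comparisons (fold changes and p-values) were not used.

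Counts were tested with edgeR 4.0.16 (quasi-likelihood, TMM, filterByExpr, 15637 genes, all 48 libraries with 1 coefficient for each of the 24 groups, R 4.3.3), called at a Benjamini-Hochberg adjusted p under 0.05. The residual degrees of freedom were 24. Rhythms were fitted by least squares with F tests (numpy 2.4.6, scipy 1.17.1) to genes with varying FPKM, and the common rhythm to genes whose FPKM averaged 0.1 or more. DESeq2 1.42.0, limma 3.58.1 on log2(FPKM + 0.1) and log2(FPKM + 1), other filters and scalings, omitted mice, and omitted times were alternatives. The edgeR and permutation tests are two-sided, and the edgeR and rhythm fits were tested on simulated data. The p-values and intervals of edgeR fold changes rest on the spread between the 2 mice of a group. Rhythm F tests use the residuals around the fitted curve. Permutation tests resample the differences between the 2 mice of each group. The upper limit given for the *Kera* library without a count covers counting error only.

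All 10 members, *Foxp1*, and the other SLRP family genes were named, with up to 2 called genes of lowest adjusted p for each list and genotype and the 5 genes most like *Dcn*, *Fmod*, and *Kera*. The members and lists were chosen with earlier results of these data known.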

Additional observations from a re-analysis of the deposited data

How the results depend on the processing

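Counts of called members depended on the fit. For the tumor effect averaged over times, 1 member was called in WT and 2 in FoxP1SkmKO mice. The count in WT was 2 in a fit of that genotype's libraries alone (*Dcn* and *Kera*), 2 without CT22 in the average (*Fmod* and *Kera*), and 0 without CT26, CT34, or CT38. In FoxP1SkmKO mice it was 0 in a fit of that genotype alone, 0 without CT18 or CT30, 1 without CT38 (*Aspn*), and 1 in limma with either pseudocount (*Aspn*). Without a filter on low counts, 33218 genes entered the fit and edgeR's prior degrees of freedom became infinite, so each gene lost its own estimate of spread. The quasi-likelihood variance of *Dcn* was then 0.653 in place of 9.67 and that of *Fmod* 0.770 in place of 19.4. In that fit 9 members were called in WT and 9 in FoxP1SkmKO mice, 1 in the difference between genotypes, 4 by genotype in control mice, 5 by genotype in KPC mice, and 19 and 21 of the single-time values in WT and FoxP1SkmKO mice, where the filtered fit had 0 in each of these last 5. Over all genes, the fit without a filter called 164, 134, 1130, 165, 221, and 306 in WT mice from CT18 to CT38. It called 596, 130, 176, 317, 87, and 372 in FoxP1SkmKO mice. Fits of 4 libraries at a time called 2 single-time values in each genotype, and DESeq2 called 1 in FoxP1SkmKO mice. DESeq2 called 65, 1, 17, 12, 1, and 24 of all genes there. For limma, fits of part of the libraries, and averages without a time, no share of all genes was kept. Those counts of members have no background beside them.

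Leaving out 1 mouse at a time gave 0 to 3 called members in WT and 1 to 5 in FoxP1SkmKO mice for the averaged effect, 0 to 1 single-time calls in FoxP1SkmKO mice, 1 to 6 group rhythms (2 with all mice), 0 to 2 differences in rhythm (0 with all mice), and 6 common rhythms each time. No share of all genes was kept for these omissions. The Benjamini-Hochberg threshold left 0 group rhythms. The common rhythm was tested also without single times and groups after the data had been seen. It was called in 3 members without CT18, beside 26.0% of all genes, and in 2 without the WT KPC mice, beside 23.4%. Likeness called 22 pairs in place of 34 when each pair lost the 2 differences farthest from the median of 1 of its genes.

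Some signs reversed, all of values that were not called. *Omd* in WT mice became 0.025 and 0.0042 in limma with pseudocounts 0.1 and 1, 0.029 without CT30, and 0.33 without CT38, with -0.14 to 0.11 over omitted mice. The difference between genotypes became 0.0052 for *Lum* and 0.15 for *Dcn* without CT18, and -0.026, -0.11, and -0.017 for *Podn* without CT26, CT34, and CT38. Over omitted mice it ranged from -0.18 to 0.088 for *Dcn* and from -0.076 to 0.16 for *Podn*. The cause was not tested.

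The replicate numbers showed no pairing of mice common to all groups. The replicate differences of the 24 groups had a median correlation of -0.0038 over 276 pairs of groups. The values ran from -0.32 to 0.23, with 12 pairs over 0.1, so a pairing within some groups is not excluded. With the replicate block, 1 member was called in WT and 2 in FoxP1SkmKO mice, the common rhythm in 6, and no call of a member changed. Over all genes, DESeq2 called 345 in WT and 137 in FoxP1SkmKO mice, 0 in the difference, 605 and 101 by genotype in control and KPC mice, and the fit without a filter 794, 527, 104, 933, and 470 in the same order.
At 1 to 12 counts for *Omd* and 0 to 74 for *Kera*, small changes are not detectable at this depth.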
